A study of Mus musculus with 3 samples.

Results

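In the hippocampus of PS19 mice, the repeat RNA recovered with an antibody to ZBP1 was compared with the repeat RNA recovered with an antibody to Z-form nucleic acid (ZNA), name by name. The comparison used 2 of the 3 libraries analysed here, 1 for each antibody. The ribosomal names LSU-rRNA_Hsa and SSU-rRNA_Hsa were dropped, each library was scaled to its remaining reads, and a repeat name was kept when it held 20 or more reads over both PS19 libraries. Of 1411 such names with a read in either library, 680 were kept, and 639 of these belonged to the LINE, SINE, LTR or DNA class. For each of the 639 the question was whether its ZBP1 to ZNA ratio departed from that of its class.

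The measurement was RNA immunoprecipitation sequencing, in which RNA bound to an antibody's target is pulled out of a lysate and sequenced. The PS19 line expresses human tau with a disease mutation from a transgene driven by the mouse prion promoter, and its brain develops tau aggregates. The ZBP1 library and 1 ZNA library came from PS19 mice aged 9 months, and another ZNA library came from wild-type (WT) mice of the same age. All mice were C57BL/6. The WT ZNA library is given below as values only, because it differs from the ZBP1 library in genotype as well as in antibody. The sources used here do not state whether a library pools several mice or whether both PS19 libraries came from the same lysate. No input, isotype-control or WT ZBP1 library was used here, so a ratio compares the antibodies with each other and not with the RNA present in the tissue. With 1 library a group there is no replicate check, and every interval below covers counting error only.

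ZBP1 is an innate immune sensor that binds left-handed, Z-form double-stranded RNA and DNA through its Zα domains and can trigger necroptosis and inflammation. Double-stranded RNA can form where transcripts hold inverted copies of a repeat, which makes repeats a candidate ligand of the sensor. LINEs and SINEs spread by copying their RNA into DNA, SINEs with the help of the LINE machinery. LTR elements are derived from retroviruses and hold an internal, coding region between long terminal repeats (LTRs), and many copies survive only as a solitary LTR. DNA transposons move without an RNA copy, and those of the mouse are old and inactive.

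The ZBP1 library held 74474 reads outside the rRNA names, the PS19 ZNA library 308613 and the WT ZNA library 145372. A single read was therefore worth 13.4 RPM with ZBP1 and 3.24 RPM with ZNA in PS19, RPM being reads scaled to a common total of reads outside rRNA, so the ZBP1 count set the precision of most ratios. The log2 ratio used below is that of ZBP1 over ZNA RPM in PS19, without a pseudocount, and no kept name had a count of 0. TMM scaling lowered every log2 ratio by 0.16, and scaling to all reads on repeat names, rRNA included, lowered every one by 1.02. A sign against 0 thus holds on the present scale alone, whereas a distance between a name and its class does not move with scaling. Across all 680 names the median log2 ratio was -0.05, with 321 names above 0 (47.2%).

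The filter left out 342 names of the classes described, mostly LTR and DNA names. It kept 140 of 184 LINE names with a read, 32 of 37 SINE names, 390 of 574 LTR names and 77 of 186 DNA names. The kept names held 99.8% of the LINE reads, 99.9% of the SINE reads, 98.7% of the LTR reads and 91.9% of the DNA reads. Just inside the limit, 11 names with 20 reads had a median log2 ratio of 0.47 and ranged from -2.20 to 1.16. Just outside it, 12 names with 19 reads had a median of 0.14 and ranged from -2.12 to 1.90. A name pools all copies of a repeat in the genome, so no position, strand or host gene can be given. Reads from copies of related names can also be exchanged between them, which makes a family firmer than a name.

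The class medians set the reference for each name. The median log2 ratio was -0.48 over the 140 LINE names (quartiles -0.85 and -0.10), 1.11 over the 32 SINE names (0.81 and 1.38), 0.05 over the 390 LTR names (-0.53 and 0.40) and -0.09 over the 77 DNA names (-0.50 and 0.67). All 32 SINE names were above 0 on this scale and under TMM scaling, and 20 of them were when scaled to all reads. A name was said to depart from its class when its ratio lay at least 2-fold from the class median and its exact 95% interval excluded that median. By this rule 66 of the 680 names departed (9.71%), and 56 of the 639 in the LINE, SINE, LTR and DNA classes did (8.76%). LINE had 16 departing names, 14 above and 2 below; SINE had 1, above; LTR had 28, 12 above and 16 below; and DNA had 11, 8 above and 3 below. Most departures rested on few reads. Of the 308 names with under 100 reads 44 departed, and of the 331 with 100 or more reads 12 did.

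**Figure D1:**
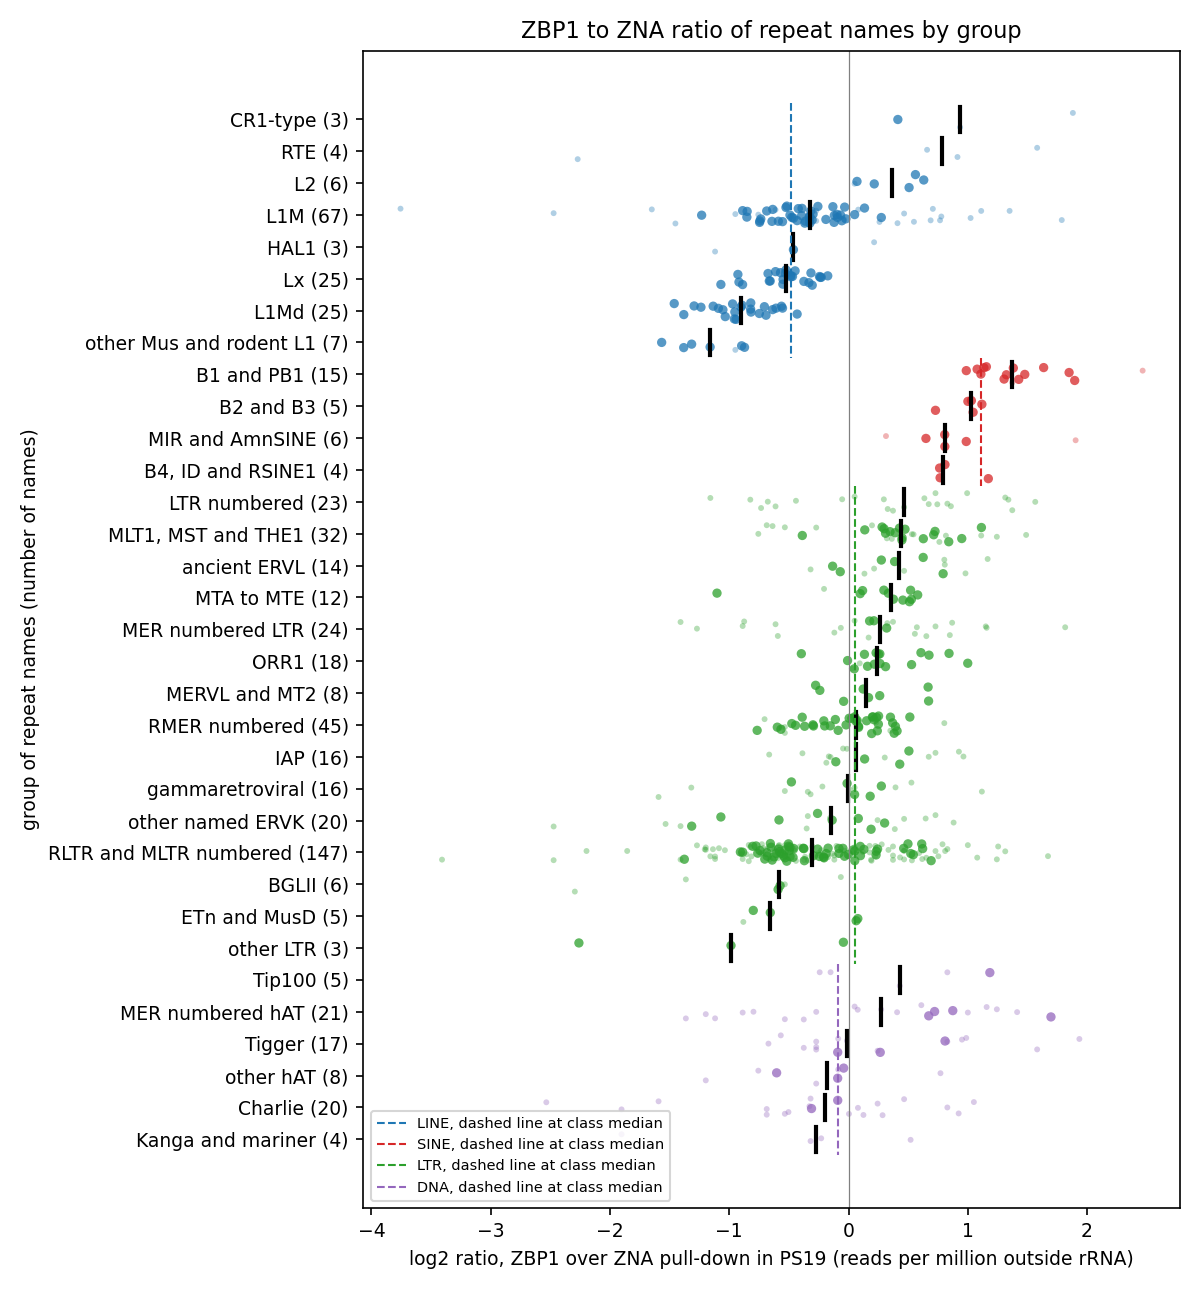
Each point is 1 repeat name and gives its log2 ratio of ZBP1 over ZNA RPM in PS19 (x axis), by group of names (y axis, groups of 3 or more, with the number of names); large points have 100 or more reads over both libraries, black bars are group medians and dashed lines class medians. L1Md names lie left of the LINE median of -0.48 with 1 exception and all 6 L2 names right of it, while every SINE name lies right of 0 on this scale.

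Among names with 100 or more reads, the spread within a class was wider than counting error. Over 107 LINE names the log2 ratio had a standard deviation of 0.43, against 0.18 from counting alone. It was 0.33 against 0.14 over 26 SINE names, 0.51 against 0.25 over 184 LTR names and 0.65 against 0.21 over 14 DNA names. Of the 331 names at this depth, 66 had an interval wholly above their class median (19.9%) and 79 wholly below it (23.9%). Most of these names lay under 2-fold from the median.

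Within the LINE class, the L1Md and the other Mus and rodent L1 names were lowest and the old L2, CR1-type and RTE names highest. L1Md names, which include the L1 subfamilies still active in the mouse, held 7345 reads with ZBP1, 55510 with ZNA in PS19 and 23201 with ZNA in WT. Their median log2 ratio was -0.90, and 24 of 25 names lay below the class median. For 20 of these 25 the whole interval was below it, the background being 23.9%. Among LINE reads, the L1Md share was 30.6% with ZBP1 (30.1 to 31.2%, 95% Wilson interval), 36.8% with ZNA in PS19 (36.6 to 37.1%) and 34.8% with ZNA in WT (34.4 to 35.2%). No L1Md name reached 2-fold from the class median, and the median of the family differed from it by -0.42.

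The pooled log2 ratios of the L1Md subfamilies were all negative, and L1MdMus stood apart from most. Values were -0.83 (-0.91 to -0.75) for 7 L1MdA names and -0.99 (-1.14 to -0.85) for 3 L1MdTf names. They were -0.80 (-0.96 to -0.64) for 2 L1MdGf names and -0.89 (-0.95 to -0.84) for 7 L1MdF names. The 3 L1MdV names had -0.94 (-1.03 to -0.85). The 2 L1MdMus names had -0.63 (-0.74 to -0.52), the least low of these sets. Of the other intervals, only that of L1MdGf overlapped the L1MdMus interval. L1MdA, L1MdTf and L1MdGf are the subfamilies with young, mobile copies, and their intervals overlapped those of the older L1MdF and L1MdV. The 2 L1MdGf names themselves lay apart, at -1.38 and -0.55. Among single names, L1MdF_IV had the most reads, 878 with ZBP1, 6109 with ZNA in PS19 and 2582 with ZNA in WT. Its log2 ratio was -0.75 (-0.85 to -0.64). L1MdN_I was lowest at -1.46 (-2.01 to -0.95) and L1MdA_VII highest at -0.43 (-0.61 to -0.26). Over the 25 names the log2 ratio had a standard deviation of 0.27, against 0.12 from counting alone.

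A set of 7 other Mus and rodent L1 names lay lower still, with a median log2 ratio of -1.16 and a pooled value of -1.18 (-1.29 to -1.08). All 7 were below the class median. MusHAL1, a truncated L1 relative that lacks part of the coding region, was the lowest LINE name with 100 or more reads. It had 29 reads with ZBP1, 356 with ZNA in PS19 and 133 with ZNA in WT, or 389, 1154 and 915 RPM. Both ZNA libraries were thus well above the ZBP1 library. Its ratio was 2.96-fold lower with ZBP1, a log2 ratio of -1.57 (-2.17 to -1.02), and it was 1 of the 2 LINE names that departed below the class. L1_Mur3, with the most reads of this set, had 3384 RPM with ZBP1, 8422 with ZNA in PS19 and 7305 with ZNA in WT, a log2 ratio of -1.32 (-1.51 to -1.13). L1VL1 was the highest at -0.87 (-1.55 to -0.25). The other LINE name below its class was L1ME4a, which had 1 read with ZBP1, 56 with ZNA in PS19 and 38 with ZNA in WT. It has under 100 reads, and its interval ran from -9.09 to -1.22.

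Lx names, rodent L1 elements older than L1Md, sat at the class median. They held the most LINE reads, 11063 with ZBP1, 64872 with ZNA in PS19 and 30116 with ZNA in WT. Their median log2 ratio was -0.52, with 10 of 25 names above the class median and 15 below. They ranged from -1.07 (-1.23 to -0.92) in L1Lx_IV to -0.17 (-0.25 to -0.10) in Lx8, the most read LINE name of all with 1632, 7631 and 3734 reads in the order used above. Their share of LINE reads was 46.1% with ZBP1 (45.5 to 46.8%), 43.0% with ZNA in PS19 (42.8 to 43.3%) and 45.2% with ZNA in WT (44.8 to 45.6%). No Lx name departed from the class.

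L1M names, L1 relatives shared with other mammals, lay slightly above the class. Together with HAL1 names their median log2 ratio was -0.32, with 47 of 70 names above the class median. The 3 HAL1 names alone had a median of -0.46, close to that of the class. No L1P name was in this set. The pooled log2 ratio was -0.30 in L1MA, -0.32 in L1MB, -0.37 in L1MC, -0.43 in L1MD and -0.18 in L1ME names. The 15 names that start with L1M and a digit had a pooled value of -0.59 (-0.71 to -0.47), close to the pooled LINE value of -0.60. Their median was -0.39, with 8 names above the class median and 7 below. The intervals of neighbours in the order from L1MA to L1ME overlapped, the last by little, at -0.63 to -0.24 in L1MD and -0.33 to -0.03 in L1ME. Among names with 100 or more reads, L1ME2 was highest at 0.27 (-0.27 to 0.79) and L1MA4A lowest at -1.23 (-1.87 to -0.65). L1M2, with the most reads, had -0.85 (-1.08 to -0.62). Of the 70 names 7 departed above the class and 1 below, and all 8 had under 100 reads. These are 11.4% of the names, the same share as in the whole LINE class.

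L2 names stood furthest above the class among the better covered LINE families. L2 is an ancient LINE family whose copies are shared by all mammals and no longer move. Its 6 names held 1230 reads with ZBP1, 4272 with ZNA in PS19 and 1839 with ZNA in WT. That was 5.13% of LINE reads with ZBP1 (4.86 to 5.42%), against 2.83% (2.75 to 2.92%) and 2.76% (2.64 to 2.89%) in the PS19 and WT ZNA libraries. All 6 were above the class median, and all 5 with 100 or more reads had their whole interval above it. Of all 107 LINE names at this depth 16 did, these 5 included. Over the LINE, SINE, LTR and DNA classes the background was 19.9%. Relative to all other LINE reads, the log2 odds of L2 with ZBP1 over ZNA in PS19 was 0.89 (0.80 to 0.98).

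L2b and L2d2 were the LINE names with 100 or more reads that departed above the class. L2b had 183 reads with ZBP1, 514 with ZNA in PS19 and 205 with ZNA in WT, or 2457, 1666 and 1410 RPM. It was thus highest with ZBP1 and similar in both ZNA libraries, and its log2 ratio was 0.56 (0.31 to 0.81). L2d2 had 457 RPM with ZBP1, 295 with ZNA in PS19 and 371 with ZNA in WT, with a log2 ratio of 0.63 (0.02 to 1.21). L2a and L2, with the most reads of the family, were at 0.22 (0.06 to 0.37) and 0.07 (-0.09 to 0.23). The 6 names therefore ran from near 0 to above 0.5 on the present scale. L2b and L2d2 were below 0 when scaled to all reads on repeat names.

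The other old LINE families had few reads. The 3 CR1-type names, L3, L3b and Plat_L3, had a median log2 ratio of 0.94 on 151 ZBP1 reads, and their log2 odds against other LINE reads was 1.18 (0.90 to 1.45). L3 had 1571 RPM with ZBP1, 1179 with ZNA in PS19 and 991 with ZNA in WT, a log2 ratio of 0.41 (0.10 to 0.72). The 4 RTE names had a median of 0.79 on 61 ZBP1 reads and log2 odds of 1.21 (0.76 to 1.64). MamRTE1 had 403 RPM with ZBP1, 214 with ZNA in PS19 and 213 with ZNA in WT, a log2 ratio of 0.91 (0.24 to 1.56). L4_A_Mam, with 2 ZBP1 reads and 40 with ZNA in PS19, was the exception at -2.27 (-5.37 to -0.32). Each single RTE name had under 100 reads over both PS19 libraries.

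The SINE class was narrow around its median of 1.11, and a single name, PB1D11, departed from it. The order within the class ran from B1 and PB1 names at the top to B4, ID and MIR names at the bottom. B1 elements descend from the 7SL RNA, as does the human Alu, and PB1 names are the old monomers that preceded B1. The 15 B1 and PB1 names had a median log2 ratio of 1.37 and 12 of them lay above the class median. Their share of SINE reads was 16.2% with ZBP1 (15.6 to 16.7%), 12.6% with ZNA in PS19 (12.2 to 12.9%) and 12.5% with ZNA in WT (12.0 to 13.1%).

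PB1 names lay above B1 names. The 5 PB1 names held 278 reads with ZBP1, 332 with ZNA in PS19 and 130 with ZNA in WT, and their pooled log2 ratio was 1.79 (1.56 to 2.03). The 10 B1 names held 2388, 4057 and 1857 reads and had 1.29 (1.21 to 1.36), so the intervals did not overlap. PB1D11 had 20, 15 and 5 reads in these libraries, the only SINE name with more reads with ZBP1 than in the deeper PS19 ZNA library. Its log2 ratio was 2.47 (1.43 to 3.54). PB1D7, highest among names with 100 or more reads, had 712 RPM with ZBP1, 191 with ZNA in PS19 and 172 with ZNA in WT. That was 3.72-fold higher with ZBP1, a log2 ratio of 1.90 (1.33 to 2.46), and its interval excluded the class median although the ratio lay under 2-fold from it. B1_Mus1, the B1 name with the most reads, had 9117, 3642 and 3316 RPM and a log2 ratio of 1.32 (1.18 to 1.46). B1_Mur3 was lowest of the set at 0.99 (0.70 to 1.27).

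**Figure D2:**
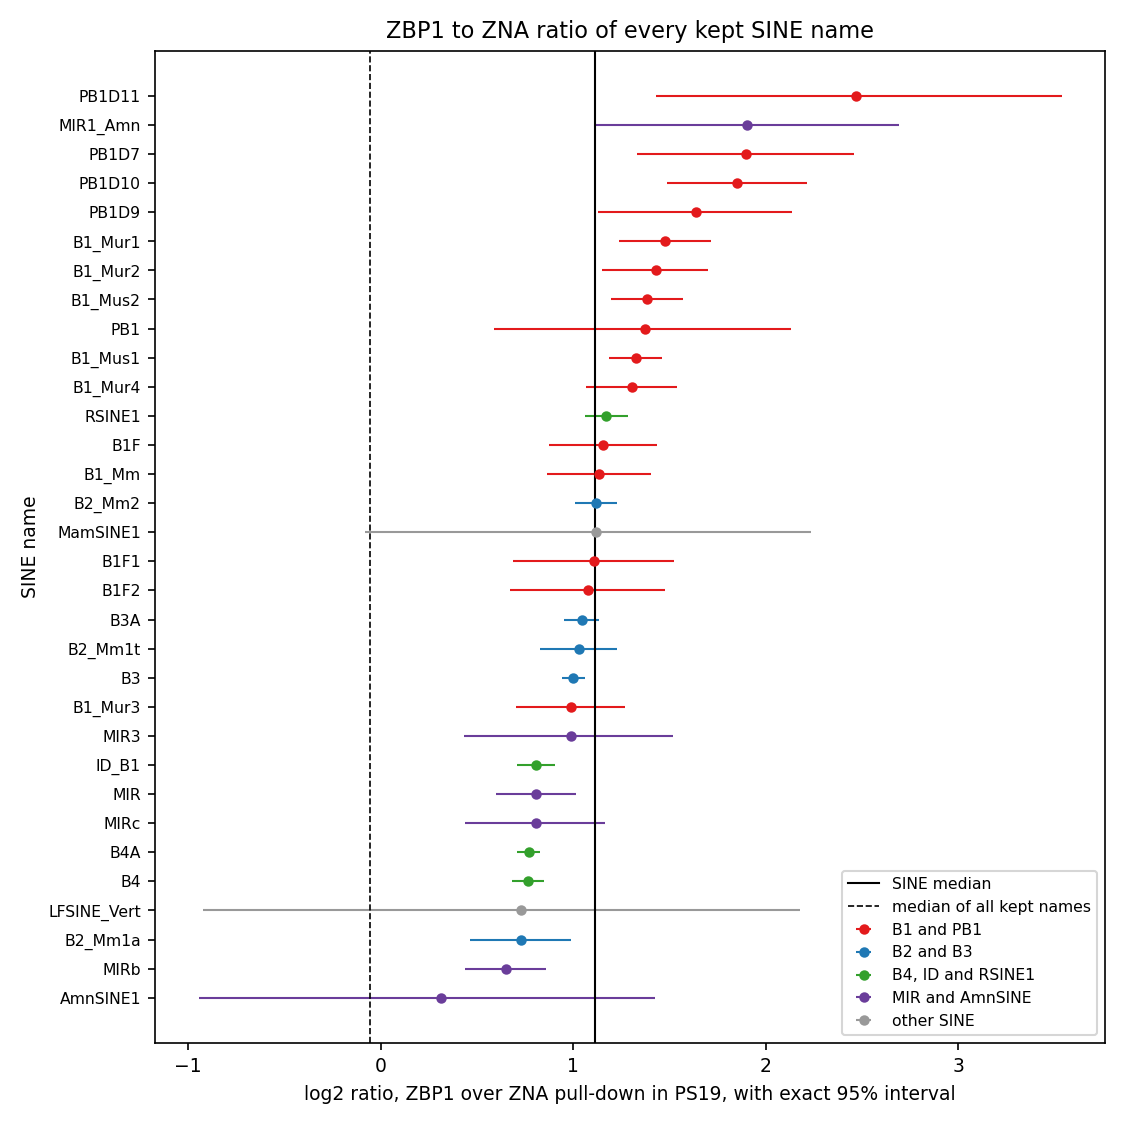
The log2 ratio of ZBP1 over ZNA RPM in PS19 (x axis) is shown for each of the 32 kept SINE names (y axis), with exact 95% intervals from counting error, coloured by family; the solid line is the SINE median of 1.11 and the dashed line the median of all 680 names, -0.05. PB1 names are near the top and B4, ID_B1 and MIR names near the bottom, and the wide intervals belong to names with few reads.

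B2 and B3 names, which descend from a tRNA and are abundant in the mouse, lay close to the class median with a median of 1.03 over 5 names. B3 had the most SINE reads after B4A, 3272 with ZBP1, 6776 with ZNA in PS19 and 3038 with ZNA in WT. Its log2 ratio was 1.0 (0.94 to 1.06). B2_Mm2 had 1.12 (1.01 to 1.23), and B2_Mm1a was lowest at 0.73 (0.46 to 0.99). B4 and ID_B1 names were lower, and RSINE1 of the same set was not. B4A had 40377 RPM with ZBP1, 23716 with ZNA in PS19 and 22460 with ZNA in WT, a log2 ratio of 0.77 (0.71 to 0.83). RSINE1 had 13333, 5917 and 5572 RPM and a log2 ratio of 1.17 (1.06 to 1.28). The intervals of B4A and RSINE1 lay on opposite sides of 1.

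MIR and AmnSINE names, old SINEs, lay below the class median in 5 of 6 cases, with a median log2 ratio of 0.81. MIRb had 3531 RPM with ZBP1, 2252 with ZNA in PS19 and 2745 with ZNA in WT, a log2 ratio of 0.65 (0.44 to 0.86). MIR3 was highest among MIR names with 100 or more reads at 0.99 (0.43 to 1.52). The old names thus did not lie on the same side of their class throughout. L2 lay above the other LINE reads, whereas MIR and AmnSINE names had a log2 odds of -0.20 (-0.33 to -0.07) against the other SINE reads. The MIR and AmnSINE share of SINE reads was 4.29% with ZBP1, 4.90% with ZNA in PS19 and 5.93% with ZNA in WT. The ZNA libraries thus differed from each other by more than the ZBP1 library differed from the PS19 ZNA library.

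In the LTR class, the ERVL-MaLR names lay above the class median and the numbered RLTR and MLTR names below it. ERVL-MaLR is the group of non-autonomous elements that here holds ORR1, MT and MLT names, with no MST or THE1 name among them. Its 62 names held 16208 reads with ZBP1, 52099 with ZNA in PS19 and 23869 with ZNA in WT. They made up 59.2% of LTR reads with ZBP1 (58.6 to 59.8%), 52.6% with ZNA in PS19 (52.3 to 52.9%) and 54.2% with ZNA in WT (53.7 to 54.7%). The median log2 ratio was 0.34, and 12 of 62 names lay below the class median, where 49.7% of all LTR names did. The departing names were 3 above and 1 below (6.45%), against 7.18% of all LTR names.

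Among the MaLR groups, the MLT1, MST and THE1 names were highest, and the MT and ORR1 names were alike within counting error. The pooled log2 ratio was 0.48 (0.40 to 0.56) over 32 MLT names, 0.36 (0.32 to 0.40) over 12 MTA to MTE names and 0.35 (0.31 to 0.39) over 18 ORR1 names. MLT1 names are shared by mammals, whereas MT and ORR1 names are of rodents. MLT1L was the only LTR name with 100 or more reads that departed above the class, at 470 RPM with ZBP1, 217 with ZNA in PS19 and 213 with ZNA in WT. It was 2.16-fold higher with ZBP1, a log2 ratio of 1.11 (0.48 to 1.73). MLT1D, with the most reads, had 0.35 (0.11 to 0.58) and MLT1E3 was lowest at -0.39 (-1.18 to 0.33). Of the MT names, MTD had the most reads and 0.33 (0.26 to 0.41), and MTB was highest at 0.58 (0.43 to 0.73).

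Within ORR1 the values differed between lettered subfamilies. Pooled log2 ratios were 0.13 (0.06 to 0.20) over 7 ORR1A names, 0.34 (0.25 to 0.43) over 3 ORR1B names, 0.23 (0.11 to 0.35) over 2 ORR1C names and 0.35 (0.26 to 0.43) over 3 ORR1D names. The 3 ORR1E, ORR1F and ORR1G names had 0.67 (0.60 to 0.75), on 1882 reads with ZBP1, 4890 with ZNA in PS19 and 2320 with ZNA in WT. Their interval lay above those of all other ORR1 subfamilies, while the B, C and D intervals overlapped. ORR1A2, the ORR1 name with the most reads, had 10635 RPM with ZBP1, 9695 with ZNA in PS19 and 8523 with ZNA in WT, and a log2 ratio of 0.13 (0.02 to 0.25). ORR1A0 was the lowest at -0.40 (-0.73 to -0.07).

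ERVL names other than MaLR, which include MERVL and its MT2 LTRs, had a median log2 ratio of 0.27 over 22 names. MT2A was highest of the MERVL and MT2 names, at 3881 RPM with ZBP1, 2437 with ZNA in PS19 and 2435 with ZNA in WT. Its log2 ratio was 0.67 (0.47 to 0.87). MERVL_2A-int had 0.26 (0.09 to 0.44) and MT2B2 was lowest at -0.28 (-0.72 to 0.14). Old numbered LTR and MER names had a median of 0.33 over 47 names. The 5 LTR16 names ranged from -0.82 to 1.57, with 3 above and 2 below the class median. LTR16C, with 40 reads in the ZBP1, 56 in the PS19 ZNA and 25 in the WT library, was the highest, at 1.57 (0.94 to 2.18).

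ERVK names had a median log2 ratio of -0.14 over 47 names and differed by lineage. IAP names, intracisternal A particle elements that still move in the mouse, held 702 reads with ZBP1, 2238 with ZNA in PS19 and 1038 with ZNA in WT. Their median of 0.06 equalled the class median within 0.01, but the pooled value was 0.38 (0.25 to 0.50). IAPEz-int held 473 of the 702 ZBP1 reads and had a log2 ratio of 0.51 (0.35 to 0.66). IAPEY3-int, by contrast, had -0.11 (-0.78 to 0.52). ETn and MusD, another lineage with mobile copies, had a median of -0.66 over 5 names. ETnERV2-int had 322 RPM with ZBP1, 561 with ZNA in PS19 and 420 with ZNA in WT, a log2 ratio of -0.80 (-1.48 to -0.18). The pooled intervals of IAP and of ETn and MusD, the latter -0.73 to -0.16, did not overlap.

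The MYSERV names were the lowest of the ERVK lineages described here. The 3 names had a pooled log2 ratio of -0.97 (-1.25 to -0.70), all below the class median. MYSERV16_I, an internal sequence, had 29 reads with ZBP1, 299 with ZNA in PS19 and 114 with ZNA in WT. Its ratio was 2.49-fold lower with ZBP1, a log2 ratio of -1.32 (-1.92 to -0.76). MYSERV-int had 631 RPM with ZBP1, 1325 with ZNA in PS19 and 1032 with ZNA in WT, a log2 ratio of -1.07 (-1.54 to -0.63). Both names departed below the class. The 6 BGLII names were also all below the class median, with a pooled log2 ratio of -0.63 (-0.97 to -0.31). BGLII, with the most reads, had -0.57 (-1.12 to -0.06).

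MurERV4_19-int, an internal sequence of an endogenous retrovirus, lay farthest from the LTR class among names with 100 or more reads. It had 7 reads with ZBP1, 139 with ZNA in PS19 and 49 with ZNA in WT, or 93.99, 450 and 337 RPM. The ZBP1 value was thus the lowest of the 3 libraries, 4.79-fold under the PS19 ZNA value, with a log2 ratio of -2.26 (-3.60 to -1.18). MurERV4-int, its relative, had 658 RPM with ZBP1, 1303 with ZNA in PS19 and 1087 with ZNA in WT, a log2 ratio of -0.99 (-1.44 to -0.55). RodERV21-int, an internal name of another lineage, had -0.04 (-0.42 to 0.32).

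The 147 RLTR and MLTR names, rodent elements numbered without regard to lineage, had a median log2 ratio of -0.30, and 99 of them lay below the class median. Of these names 140 are LTR names and 7 end in -int. Among the numbered sets, 5 RLTR11 names had a pooled value of -0.57 (-0.79 to -0.35) with all 5 below the class median. The 14 RLTR20 names had -0.42 (-0.65 to -0.20) with 11 below it. The 20 RLTR13 names were at -0.11 (-0.30 to 0.07) and the 4 RLTR17 names at -0.05 (-0.21 to 0.11), nearer to the class. Pooled values were -0.33 (-0.61 to -0.06) for 9 RLTR12 names and -0.42 (-0.73 to -0.11) for 7 RLTR31 names. The 7 RLTR9 names had -0.14 (-0.59 to 0.29). The 8 RLTR10 names had -0.09 (-0.33 to 0.15), with 5 above the class median and 3 below. Among them RLTR10-int had -0.24, and the 7 LTR names had a pooled value of 0.08. RLTR22_Mur departed below the class, at 336 RPM with ZBP1, 872 with ZNA in PS19 and 901 with ZNA in WT. It was 2.60-fold lower with ZBP1, a log2 ratio of -1.38 (-2.03 to -0.78). MLTR14 was highest with 100 or more reads at 0.69 (0.45 to 0.93), and RLTR17B_Mm, with the most reads, was at the class median, 0.05 (-0.14 to 0.24).

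The 45 RMER names, also grouped by number, had a median of 0.06 and none departed from the class. Sets within them differed, since 9 RMER17 names had a pooled log2 ratio of 0.25 (0.12 to 0.37) and 6 RMER6 names had -0.45 (-0.60 to -0.29). Gammaretroviral names, which include the murine leukaemia virus relatives, had a median of 0.00 over 16 names and a pooled log2 ratio of -0.29 (-0.43 to -0.15). RLTR4_MM-int, the most read of them, had 4055 RPM with ZBP1, 5651 with ZNA in PS19 and 4182 with ZNA in WT, a log2 ratio of -0.48 (-0.66 to -0.30). RLTR1B-int had 0.28 (-0.33 to 0.85).

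**Figure D3:**
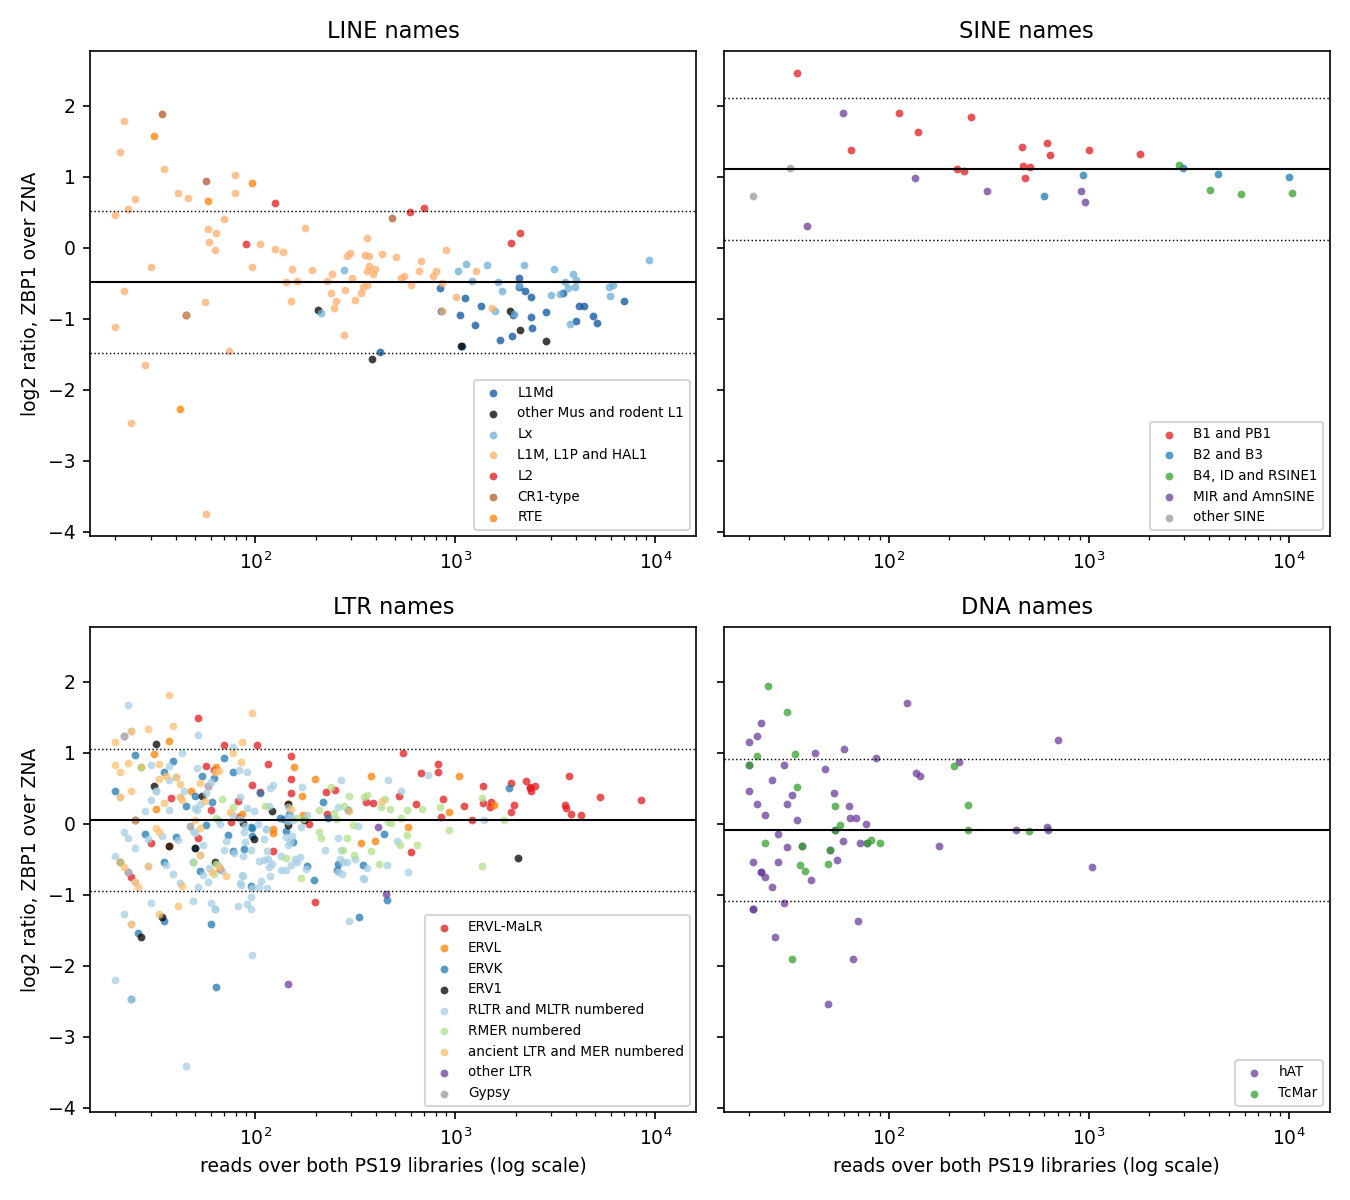
Each panel plots the kept names of 1 class by their reads over both PS19 libraries (x axis, log scale) and their log2 ratio of ZBP1 over ZNA RPM (y axis), coloured by family; solid lines are class medians and dotted lines lie 2-fold from them. Names beyond the dotted lines are mostly those with under 100 reads, of which 44 departed against 12 with 100 or more, and in the LINE panel the L2 names lie above the L1Md names at every depth they share.

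DNA transposon names had few reads, with 14 of 77 at 100 or more. TcMar names (the Tigger, mariner and Kanga families, MER2 and MER46C) had a median log2 ratio of -0.09 over 23 names and hAT names (the Charlie, Tip100 and URR1 families and the other MER names) -0.06 over 54. The superfamilies were therefore not separated, and pooled values of 0.11 (-0.04 to 0.27) and 0.16 (0.07 to 0.25) overlapped. Within hAT, FordPrefect of the Tip100 family and MER5A were the names with 100 or more reads that departed above the class.

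FordPrefect had 248 reads with ZBP1, 452 with ZNA in PS19 and 163 with ZNA in WT, or 3330, 1465 and 1121 RPM. It was highest with ZBP1, 2.27-fold over the PS19 ZNA value, with a log2 ratio of 1.19 (0.96 to 1.41). With it, the 5 Tip100 names took 16.6% of DNA reads with ZBP1 (14.96 to 18.5%), 9.16% with ZNA in PS19 (8.48 to 9.89%) and 7.93% with ZNA in WT (7.004 to 8.98%). FordPrefect alone held 248 of their 285 ZBP1 reads and 452 of their 585 PS19 ZNA reads, so these shares mostly describe 1 name. Of the 5 names, 3 lay above the class median and 2 below. MER5A had 725 RPM with ZBP1, 224 with ZNA in PS19 and 282 with ZNA in WT. It was 3.24-fold higher with ZBP1, a log2 ratio of 1.70 (1.16 to 2.23). All 3 MER5 names were above the class median, with a pooled value of 1.49 (1.05 to 1.92). MER20 and MER58A were also above it at 0.87 (0.44 to 1.29) and 0.67 (0.11 to 1.21), short of 2-fold.

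On the other side, RCHARR1 had the most reads of the DNA class and the lowest ratio among names with 100 or more reads. It had 1920 RPM with ZBP1, 2916 with ZNA in PS19 and 2717 with ZNA in WT, a log2 ratio of -0.60 (-0.87 to -0.35). Charlie1a was at the class median with -0.09 (-0.46 to 0.26), as was Tigger1 with -0.09 (-0.58 to 0.38). Tigger5b_Glire had 0.81 (0.36 to 1.24). The 3 DNA names that departed below the class were Charlie2a, Charlie7 and MER20B, which had 2, 4 and 6 reads with ZBP1. All of them have under 100 reads, and they are named with their values known.

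Internal and LTR names of the LTR class were then compared. The 53 names ending in -int had a median log2 ratio of -0.06, and 33 of them lay below the class median. The 324 LTR names had a median of 0.06, with 155 below it. A further 13 internal names, ending in _I or -I_MM, were left out of this comparison. Their median was 0.08, with 7 above the class median and 6 below. Of the names ending in -int 5 departed below the class and 1 above, and of the LTR names 10 departed below and 11 above. Over all 680 names, 3.97% departed below their class and 5.74% above. In reads, the names ending in -int held 2937 with ZBP1, 12623 with ZNA in PS19 and 5262 with ZNA in WT. The odds of a read on such a name against an LTR read were 1.22-fold lower with ZBP1 than with ZNA in PS19 (1.17 to 1.27). This pooled odds mixes families of different level, and the comparison within families gave no single direction.

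Within families, 19 pairs were formed. In 15 of them an internal name was set against the 1 LTR name with the same stem, and in 4 the internal and LTR names of a retrovirus family were pooled. The internal side was lower with ZBP1 in 7 pairs and higher in 12, with a median log2 odds of 0.27. Among the 12 pairs with 100 reads on each side, 6 were lower and 6 higher. With all LTR names that start with the stem pooled, a pairing chosen after seeing the data, the internal side was lower in 12 of 22 pairs, with a median of -0.26. The direction of the median thus turned with the pairing. In 15 of 19 the interval of the odds ratio held 1. It excluded 1 with the internal side lower in 3 pairs (15.8%) and with the internal side higher in 1 (5.26%). An odds ratio does not depend on the scaling of the libraries.

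MTC showed the largest difference. MTC-int had 20 reads with ZBP1, 178 with ZNA in PS19 and 67 with ZNA in WT, and the MTC LTR had 1267, 4045 and 1813. There were thus 1.58 internal reads per 100 LTR reads with ZBP1, 4.40 with ZNA in PS19 and 3.70 with ZNA in WT. The odds were 2.79-fold lower with ZBP1 (1.74 to 4.69). MTC-int also departed below the LTR class by itself, at a log2 ratio of -1.10 (-1.85 to -0.43), while the MTC LTR was above it at 0.38 (0.28 to 0.47).

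RLTR19 and RMER15 were the other pairs with a lower internal side. RLTR19 had 128 internal reads per 100 LTR reads with ZBP1, 270 with ZNA in PS19 and 273 with ZNA in WT. Its odds were 2.11-fold lower with ZBP1 (1.21 to 3.66). RMER15 had 26.9, 42.5 and 45.2 internal reads per 100 LTR reads in these libraries, with odds 1.58-fold lower (1.21 to 2.08). In both pairs the ZNA libraries were close to each other. ETn and MusD had 359 internal reads per 100 reads of their LTR, RLTRETN_Mm, with ZBP1, against 557 with ZNA in PS19. Their log2 odds of -0.63 had an interval that held 0 (-1.34 to 0.11). ORR1A3 was at -0.26 (-0.87 to 0.32).

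ORR1B1 differed in the opposite direction. ORR1B1-int had 179 reads with ZBP1, 371 with ZNA in PS19 and 167 with ZNA in WT, and the ORR1B1 LTR had 795, 2744 and 1174. There were 22.5 internal reads per 100 LTR reads with ZBP1, 13.5 with ZNA in PS19 and 14.2 with ZNA in WT. The odds were 1.67-fold higher with ZBP1 (1.36 to 2.03). ORR1B1-int was also the highest ORR1 name, at a log2 ratio of 1.0 (0.73 to 1.26), just short of 2-fold from the class median. IAP internal names against IAPLTR names had a log2 odds of 0.29 (-0.09 to 0.67), RLTR1B 0.29 (-0.58 to 1.17), RLTR10 0.27 (-0.61 to 1.24) and RLTR14 0.75 (-0.21 to 1.74). All of these last intervals held 0.

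**Figure D4:**
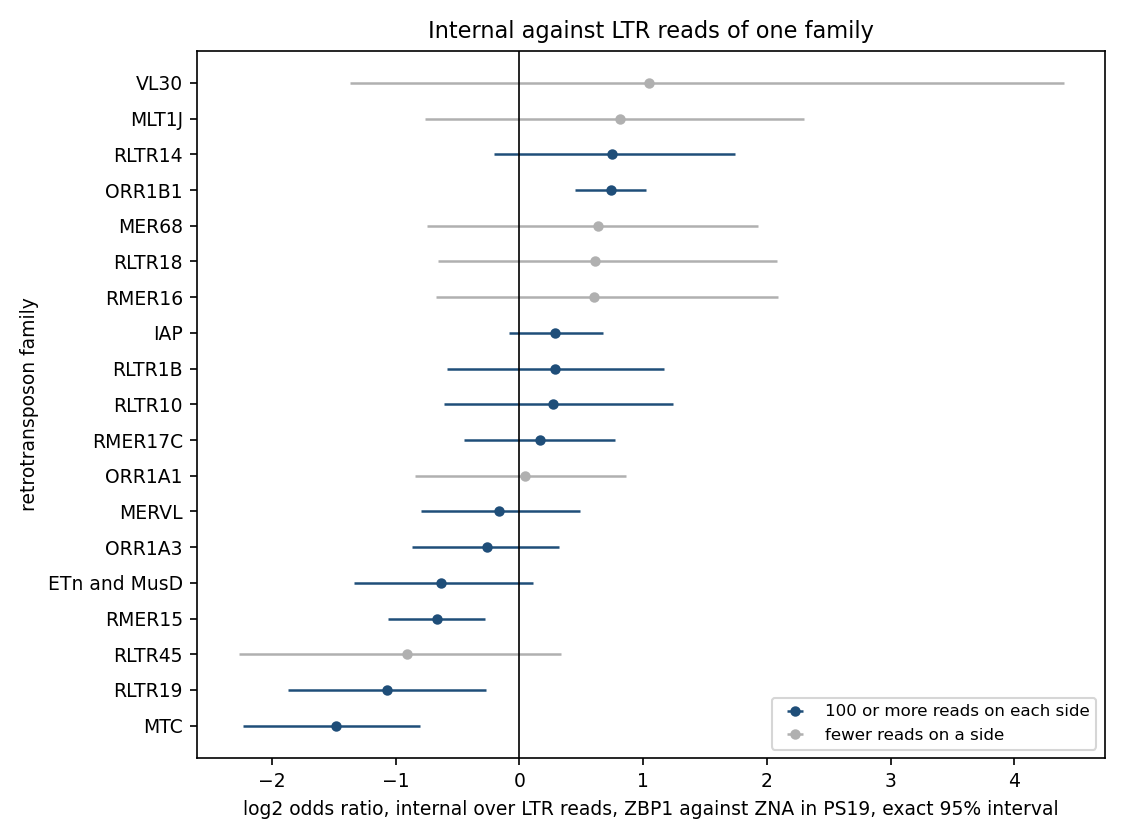
For each of 19 families (y axis) the point is the log2 odds ratio of internal over LTR reads in the ZBP1 against the ZNA library of PS19 (x axis), with its exact 95% interval from counting error; dark points have 100 or more reads on each side. MTC, RLTR19 and RMER15 lie left of 0 with their whole interval and ORR1B1 lies right of it, and the other 15 intervals hold 0.

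Within each group, the names ending in -int and the LTR names were pooled, and internal names ending in _I or -I_MM were left out. The values depended in part on the most read internal name. The log2 odds was -0.47 (-0.70 to -0.24) over the MTA to MTE names and -1.25 (-1.87 to -0.69) without MTE-int, the most read internal name of that group. In ORR1 it was 0.32 (0.10 to 0.54) and turned to -0.31 (-0.72 to 0.08) without ORR1B1-int. Gammaretroviral names had -0.37 (-0.67 to -0.07), which turned to 0.10 (-0.45 to 0.64) without RLTR4_MM-int. RMER names had -0.27 (-0.48 to -0.07), and -0.24 (-0.50 to 0.01) without RMER15-int. The named ERVK lineages other than IAP, ETn and MusD had -0.64 (-1.11 to -0.17), and -0.42 (-0.91 to 0.07) without MYSERV-int. The MERVL and MT2 group had -0.13 (-0.33 to 0.06) and -0.36 (-0.69 to -0.03) without MERVL_2A-int. IAP had 0.14 (-0.18 to 0.48) and -0.42 (-0.93 to 0.07) without IAPEz-int. This IAP value rests on 5 internal and 9 LTR names, whereas the IAP pair above held 7 internal and 6 LTR names.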

How the data were processed

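The deposited values are read counts per repeat name, whole numbers with no normalization, 1 file per library, and libraries were assigned to groups by their titles. The submitters' processing notes name Trim Galore 0.6.5, STAR 2.5.3a, featureCounts 2.0.4 and the mm39 build, without roles. The repeat annotation and the multi-mapping and strand settings are not given in the sources used here, and they decide how reads are shared between related names. No molecular identifiers are stated, so a read need not be a separate molecule.

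Depth is given with the results. Classes and families were assigned by patterns in the names. RLTR, MLTR and RMER names were grouped by stem, since their superfamily is not in the name, and RMER1, MamRep and a few other names were left unassigned. Ratios have exact conditional (Clopper-Pearson) 95% intervals and shares have Wilson intervals. With 1 library a group no quasi-likelihood test could be fitted, and edgeR 4.0.16 (R 4.3.3) gave TMM factors only. Other values were computed in Python 3.11.15 with scipy 1.17.1, and the calculation was tested on simulated data. Repeats were named where, with at least 100 reads, they departed from their class (up to 5 a side), were the most read, highest or lowest of their group, or belonged to a pair with an extreme odds ratio (5 a side). Names outside this rule are given as examples of low counts or to complete a family, and were picked with their values seen. The members and lists were chosen with earlier results of these data known. The alternatives were other scalings, pseudocounts, read filters, fold limits, class centres and pairings.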

Additional observations from a re-analysis of the deposited data

How the results depend on the processing

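Scaling shifted all class medians. It moves a name and its class alike, so it could not change a departing count. With TMM the LINE, SINE, LTR and DNA medians were -0.64, 0.96, -0.11 and -0.24, and with all reads on repeat names -1.50, 0.097, -0.97 and -1.10. Under the latter, L2b (-0.46), L2d2 (-0.39) and MamRTE1 (-0.10) turned negative. A pseudocount of 10 RPM gave a SINE median of 1.08. Without a filter the LINE, LTR and DNA medians were -0.33, 0.19 and 0.47, and with at least 100 reads the LINE and DNA medians were -0.53 and 0.11. Departing names in LINE, SINE, LTR and DNA numbered 4, 0, 7 and 2 with at least 100 reads and 4, 0, 3 and 2 at a 4-fold limit. At 1.5-fold LINE, SINE and LTR had 33, 3 and 67. Without the interval condition LTR had 49 and DNA 20. Against family medians, an alternative chosen after seeing the data, LINE had 7 and SINE 2. The median log2 odds of internal over LTR reads was 0.0014 with 100 reads on each side. It was -0.26 when LTR names sharing a stem were pooled, a pairing also chosen after seeing the data, with 12 of 22 pairs lower. No paired analysis was possible because each group has 1 library, and for the same reason no library could be left out. Names under 100 reads are limited by the ZBP1 depth.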

Other observations

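A few kept names belong to none of the classes described. RMER1A, RMER1B and RMER1C, whose class the name does not give, had 5613, 6821 and 2148 RPM with ZBP1, 3814, 4708 and 1286 with ZNA in PS19 and 3921, 4513 and 1238 with ZNA in WT. Their log2 ratios were 0.56 (0.39 to 0.72), 0.53 (0.39 to 0.68) and 0.74 (0.47 to 1.01), between the LTR and the SINE medians. The simple repeats (AC)n and (TG)n, alternating purine and pyrimidine tracts of the kind known to adopt the Z form as DNA, had log2 ratios of 1.26 (0.67 to 1.83) and 1.56 (0.92 to 2.17). The complementary or shifted names (GT)n and (CA)n had 0.87 (0.20 to 1.51) and 0.35 (-0.32 to 0.98). (AC)n held 41 reads with ZBP1, 71 with ZNA in PS19 and 16 with ZNA in WT, and (CA)n 28, 91 and 27. These names were chosen with their values known. All 12 kept simple and low-complexity names had a median log2 ratio of 0.60 (quartiles -0.79 and 1.33) and ranged from -2.70 to 3.71. Of them, 7 were above 0 and 5 below. A link of the ratio to the Z form was not tested.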
